A study of Mus musculus with 37 samples.

Results

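The genes described here are 39 genes of the interferon response and of viral RNA sensing, out of 48795 genes counted in hippocampal RNA of mice that lost Kdm1a in forebrain neurons. They were taken by name and fall into 4 roles: 9 genes of RNA sensing, 9 of interferon signalling, 19 antiviral effectors and 2 of antigen presentation on MHC class I. Of these 39 genes, 36 had enough counts to be tested, among 16799 tested genes in all, while Zbp1, Oasl1 and Mx1 did not. The question put to them was whether Bst2 and Dhx58 rose alone. Hippocampal RNA came from 3 Kdm1a-ifKO mice and 3 control mice, all male and on a C57BL/6J background, with 1 library per mouse. Kdm1a-ifKOs carried both floxed Kdm1a alleles (Kdm1a f/f) and the tamoxifen-dependent recombinase Camk2a-creERT2, and controls were littermates without the recombinase. Both groups received tamoxifen at 8 weeks of age in 5 doses, and the age of these mice at collection was not given in the sources used here. The Camk2a driver is active in principal neurons of the forebrain, whereas the whole hippocampus was sequenced, so that glia, vessels and other cells that kept Kdm1a contributed RNA to every library. In such bulk tissue, a change in the number of cells of a type and a change in the RNA per cell cannot be told apart. In addition, 1 library of CTCF ChIA-PET was made from sorted nuclei of hippocampal excitatory neurons. This method maps pairs of CTCF-bound sites that lie together in the nucleus. The nuclei came from other adult mice, which carried Camk2a-creERT2 and the nuclear reporter Sun1-GFP. These mice were used 1 month after tamoxifen, and the authors present the loops as those of wild-type neurons.

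Cells recognise viral RNA in the cytosol with the helicases encoded by Ddx58 (RIG-I) and Ifih1 (MDA5), which signal through the mitochondrial adaptor encoded by Mavs to switch on interferon genes. Secreted type I interferon binds the receptor made by Ifnar1 and Ifnar2, and a complex that holds Stat2 and Irf9 then activates interferon-stimulated genes through a promoter element called the interferon-stimulated response element (ISRE). A second element, the gamma-activated site (GAS), is known from the response to interferon gamma. In the brain, microglia, astrocytes, vessels and neurons can all respond to interferon, and several of these genes are also expressed at a low level without infection.

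The libraries held between 18985542 and 19469947 counts, with similar depth in both groups. Kdm1a itself fell from 80.1 ± 0.897 CPM (counts scaled to the library size, SD, n = 3) in controls to 38.2 ± 1.23 in Kdm1a-ifKOs, with no overlap between the groups (log2 fold change, log2FC, -1.07, with an adjusted p of 6.24e-08 from the quasi-likelihood test of edgeR). At an adjusted p under 0.05, 1014 tested genes were higher in Kdm1a-ifKOs (6.04%) and 473 were lower (2.82%). The first principal component (50.2% of the variance) separated the genotypes, and on the second (16.6%) control replicate 3 and Kdm1a-ifKO replicate 2 lay opposite to the others.

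Bst2 and Dhx58 did not rise alone. Of the 36 tested genes of the list, 5 rose in Kdm1a-ifKOs (Bst2, Dhx58, Mavs, Trim25 and Irf1) and 0 fell, where 6.04% of all tested genes rose and 2.82% fell. The question named Bst2 and Dhx58 with earlier results of these data known, so their calls are not independent of that choice. The count of 5 includes both, and it is not read as an excess over the share of all tested genes. Bst2 and Dhx58 had the largest increases and were the 2 genes of the list with a log2FC over 1, a size that 1.36% of tested genes reached with an adjusted p under 0.05. Mavs, Trim25 and Irf1 had smaller increases with a log2FC over 0.5, and 3.15% of tested genes passed that threshold. The other 31 genes, with most of the antiviral effectors among them, did not pass the test. At an unadjusted p under 0.05, 10 genes of the list were higher and 0 lower in edgeR, where 13.1% of all tested genes were higher and 11.3% lower. DESeq2 called 6 genes of the list higher and 0 lower, and called 5.28% of all genes with an adjusted p higher and 3.18% lower. The 5 genes were called in all 12 alternative analyses, which included leaving out each library in turn. Without Kdm1a-ifKO replicate 1, 9 genes of the list were called, the 5 above with Ifi27, Ifit3, Ifitm3 and Xaf1. With no filter on low counts, 10 were called.

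**Figure D1:**
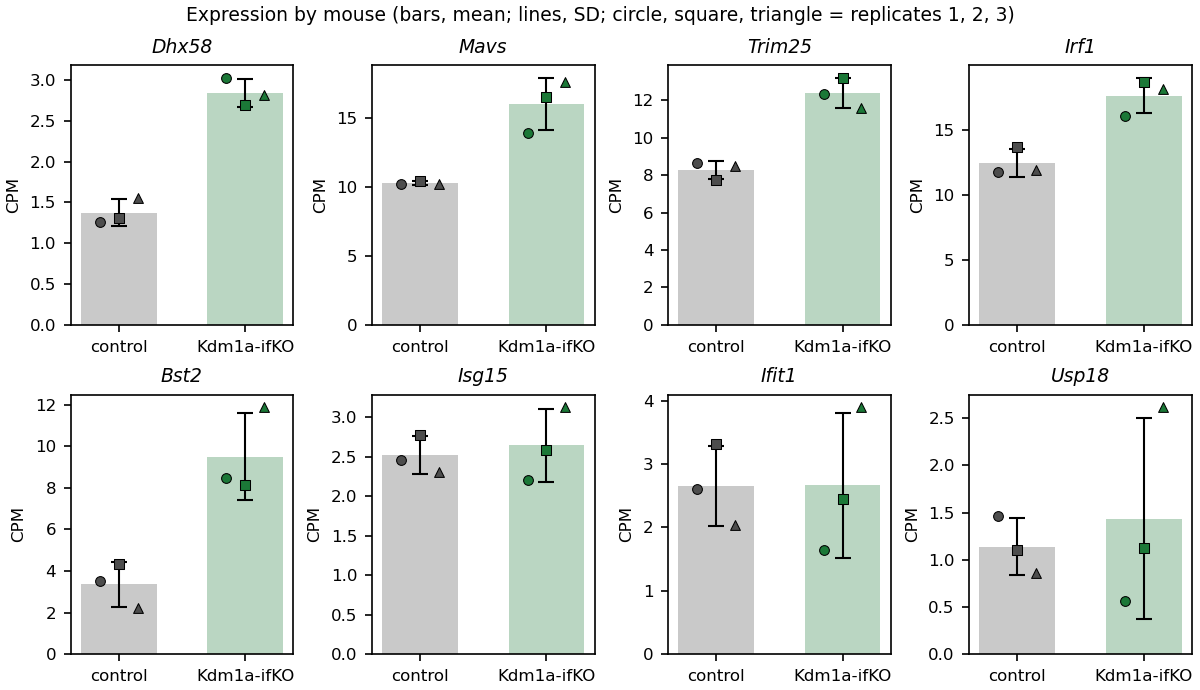
CPM of the 5 genes that rose and of Isg15, Ifit1 and Usp18, which did not pass the test, in each mouse. Bars are means, lines are the SD (n = 3), and symbols are replicates 1, 2 and 3. The 2 groups of points do not overlap for Dhx58, Mavs, Trim25, Irf1 and Bst2 and overlap for the other genes.

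Among the RNA sensing genes, Dhx58 encodes LGP2, a relative of RIG-I and MDA5 that lacks their signalling domain and modulates their activity. Its counts in control replicates 1 to 3 were 24, 25 and 29, against 59, 53 and 55 in Kdm1a-ifKO replicates 1 to 3. All Kdm1a-ifKO libraries were thus above all control libraries. The mean rose from 1.38 ± 0.161 to 2.85 ± 0.173 CPM (SD, n = 3), a log2FC of 1.05 (SE 0.202, 95% interval 0.61 to 1.48, adjusted p = 0.00566). The gene lies at chr11:100694884-100704271 on the minus strand (GRCm38) and overlaps an antisense transcript, Dhx58os. Dhx58os had 5, 1 and 2 counts in controls and 7, 8 and 14 in Kdm1a-ifKOs and was not tested. The strand setting of the counting was not given in the sources used here, so reads of Dhx58 and of its antisense partner may not be told apart.

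Mavs, the adaptor on which both helicases converge, had 195, 198 and 189 counts in controls and 271, 326 and 343 in Kdm1a-ifKOs. The groups did not overlap, and the controls lay close together. Its log2FC was 0.65 (SE 0.103, 95% interval 0.42 to 0.87, adjusted p = 0.00156). The gene lies at chr2:131234063-131248025 on the plus strand and overlaps no other annotated gene. Trim25 encodes a ubiquitin ligase that acts on RIG-I. Its counts were 165, 147 and 158 in controls and 239, 260 and 226 in Kdm1a-ifKOs, again without overlap. The log2FC of Trim25 was 0.58 (SE 0.105, 95% interval 0.35 to 0.8, adjusted p = 0.00367), and the gene, at chr11:88999376-89020293 on the plus strand, overlaps no other.

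The helicases themselves did not pass the test. Ifih1 had 71, 63 and 87 counts in controls and 67, 82 and 100 in Kdm1a-ifKOs, with a log2FC of 0.12 (95% interval -0.29 to 0.54, adjusted p = 0.741). Ddx58 had 108, 128 and 139 counts in controls and 114, 156 and 168 in Kdm1a-ifKOs, with a log2FC of 0.18 (95% interval -0.17 to 0.52, adjusted p = 0.543). For both, the groups overlapped and the interval lay below a log2FC of 1. Tlr3, the endosomal receptor for double-stranded RNA, had a log2FC of 0.13 (95% interval -0.12 to 0.38). Eif2ak2, which encodes the RNA-activated kinase PKR, had a log2FC of 0.17 (95% interval -0.17 to 0.51). Adar, the enzyme that edits double-stranded RNA, was the most highly counted sensing gene, with 3376 to 3758 counts in controls and 3511 to 3552 in Kdm1a-ifKOs. Its log2FC was -0.07, with the narrowest interval of the list (-0.18 to 0.04). Zbp1, a sensor of left-handed nucleic acids, had 5, 8 and 2 counts in controls and 5, 12 and 12 in Kdm1a-ifKOs, too few to be tested.

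Among the interferon signalling genes, Irf1, a transcription factor that interferon gamma induces, was the 1 gene of 9 that rose. Its counts were 225, 260 and 221 in controls and 314, 369 and 354 in Kdm1a-ifKOs, without overlap. The log2FC was 0.51 (SE 0.096, 95% interval 0.3 to 0.72, adjusted p = 0.00502). The gene lies at chr11:53770014-53778374 on the plus strand and overlaps the antisense gene Gm17334. Gm17334 had 17, 17 and 24 counts in controls and 41, 29 and 34 in Kdm1a-ifKOs (log2FC 0.79, adjusted p = 0.0803), far fewer than Irf1.

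Stat2, a subunit of the complex that binds the ISRE, had 697, 820 and 726 counts in controls and 892, 895 and 943 in Kdm1a-ifKOs. The groups did not overlap, and the log2FC of 0.24 (95% interval 0.09 to 0.39) just missed the threshold (adjusted p = 0.0517). Irf3, the factor that acts downstream of Mavs, had a log2FC of 0.16 (95% interval 0.01 to 0.31, adjusted p = 0.175), also without overlap. Irf9, the partner of Stat2, had a log2FC of 0.1, and Irf7, which amplifies the interferon response, had one of 0.12. For the receptor subunits, the log2FC was 0.02 for Ifnar1 (95% interval -0.12 to 0.16) and 0.14 for Ifnar2 (95% interval -0.07 to 0.35). Isg15, a ubiquitin-like modifier and a common readout of type I interferon, had 47, 53 and 43 counts in controls and 43, 51 and 61 in Kdm1a-ifKOs. Its log2FC was 0.07 (95% interval -0.36 to 0.5, adjusted p = 0.868). Usp18, which removes Isg15 from proteins and restrains the receptor, had 28, 21 and 16 counts in controls and 11, 22 and 51 in Kdm1a-ifKOs. The Kdm1a-ifKO libraries of Usp18 thus included both the lowest and the highest of the 6 values, and its interval was wide (log2FC 0.32, 95% interval -0.83 to 1.48).

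Bst2 was the only one of 17 tested antiviral effectors to rise. It encodes tetherin, a membrane protein that holds budding virions at the cell surface. Its counts were 67, 83 and 41 in control replicates 1 to 3 and 165, 160 and 232 in Kdm1a-ifKO replicates 1 to 3. The groups did not overlap, and Kdm1a-ifKO replicate 3 was the highest library. The mean rose from 3.35 ± 1.08 to 9.51 ± 2.09 CPM (SD, n = 3), the largest increase of the list (log2FC 1.5, SE 0.237, 95% interval 0.97 to 2.03, adjusted p = 0.00428). Over the 12 alternatives the log2FC of Bst2 lay between 1.28 and 1.72. The gene lies at chr8:71534255-71537456 on the minus strand and overlaps no other annotated gene.

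The other effectors gave values on both sides of 0, from -0.25 for Ifit2 to 0.62 for Ifit3. The Ifit genes encode proteins that bind viral RNA. Ifit1 had 50, 63 and 38 counts in controls and 32, 48 and 76 in Kdm1a-ifKOs, with a log2FC of 0.00 (95% interval -0.67 to 0.67). Ifit3 had 59, 86 and 53 counts in controls and 64, 119 and 131 in Kdm1a-ifKOs (log2FC 0.62, 95% interval -0.01 to 1.24, adjusted p = 0.209). In both genes Kdm1a-ifKO replicate 1 lay within or below the range of the controls. The Oas genes, whose products are enzymes activated by double-stranded RNA, had log2FCs of 0.18 (Oas1a), 0.33 (Oas2) and 0.36 (Oasl2, a related gene), all with intervals that reached a log2FC of 1. Oasl1 had at most 11 counts in a library. Of the dynamin-like Mx GTPases, Mx1 also had at most 11 counts, and Mx2 had a log2FC of 0.62 (95% interval -0.06 to 1.3). Rsad2, which encodes viperin, had a log2FC of 0.24 with an interval from -0.64 to 1.11.

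Ifi27, which encodes a small protein of intracellular membranes, was well counted and came closest to the threshold among these effectors. Its counts were 734, 733 and 763 in controls and 839, 921 and 1138 in Kdm1a-ifKOs, without overlap (log2FC 0.33, 95% interval 0.1 to 0.56, adjusted p = 0.0763). Xaf1, which promotes apoptosis, had a log2FC of 0.47 (adjusted p = 0.0796), and the highest control library lay above the lowest Kdm1a-ifKO library. Ifitm3, which blocks the entry of viruses from endosomes, had 143, 157 and 114 counts in controls and 118, 242 and 217 in Kdm1a-ifKOs (log2FC 0.43, adjusted p = 0.36). The guanylate-binding proteins Gbp2 and Gbp3 had log2FCs of -0.19 and -0.22, and for both the highest library was control replicate 2. Ifi44, Ifi35 and the ADP-ribosyltransferase gene Parp14 had log2FCs of -0.15, 0.29 and 0.03. For antigen presentation, B2m, the light chain of MHC class I, had a log2FC of 0.23 (adjusted p = 0.403), and Psmb8, a subunit of the immunoproteasome, had one of 0.49 (adjusted p = 0.153). Ifit3, Oas1a and the Gbp genes have close relatives in the genome. The authors counted only reads of high mapping quality, so reads that fit several copies may be missing and these counts are uncertain.

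**Figure D2:**
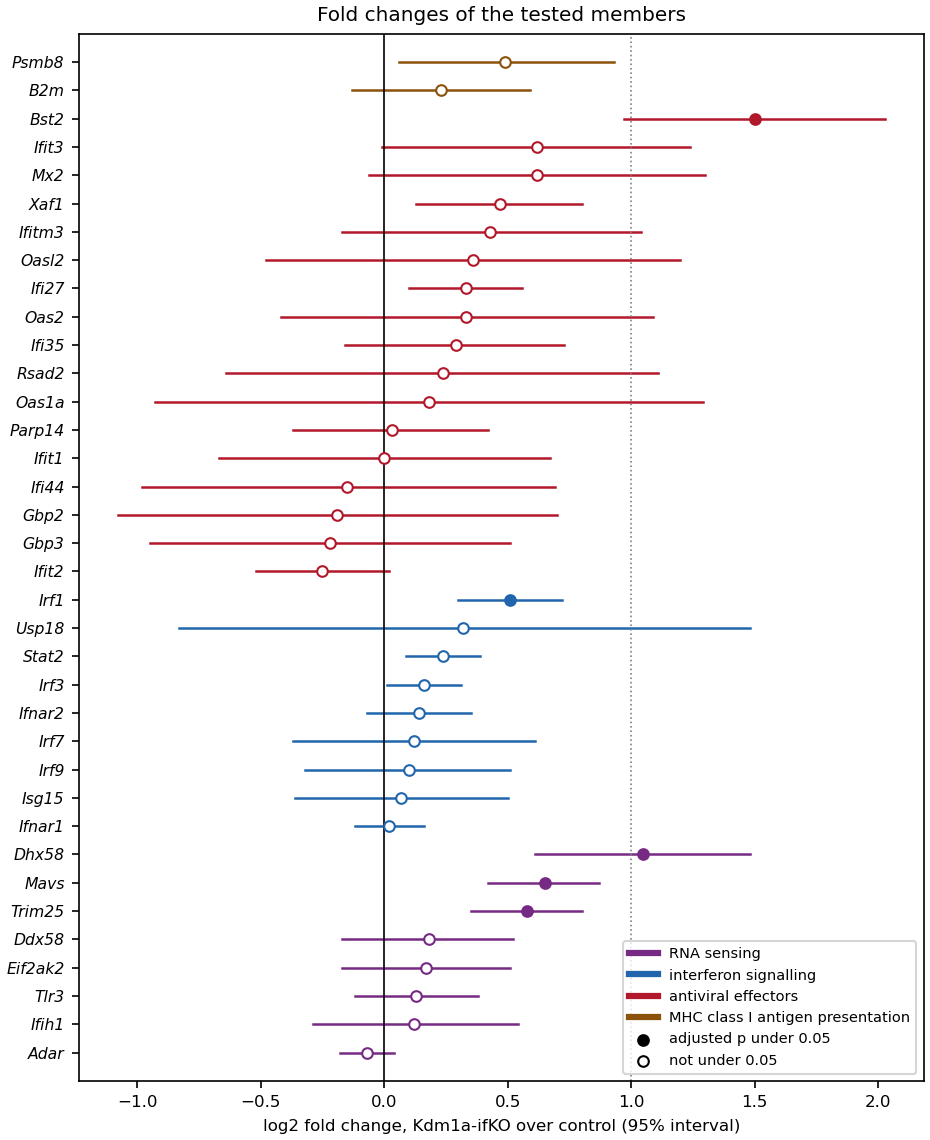
Log2FC of the 36 tested genes of the list in Kdm1a-ifKOs over controls, grouped by role and sorted within it, with 95% intervals (horizontal lines). Filled points are the 5 genes with an adjusted p under 0.05, the dotted line marks a log2FC of 1, and 31 of the 36 points lie above 0.

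Missing the threshold did not show that these genes were unchanged, and the intervals say what sizes remained possible. For 23 of the 31 genes that did not pass, the whole 95% interval lay below a log2FC of 1, and for 9 it lay below 0.5. For 8 genes (Usp18, Ifit3, Oas1a, Oas2, Oasl2, Mx2, Rsad2 and Ifitm3) the interval reached 1, so that a doubling remained possible at this depth and number of mice. With 3 mice per group, the smallest p of an exact permutation test is 0.1 (two-sided), which any gene reaches whose groups do not overlap. The Kdm1a-ifKO libraries lay wholly above the controls in 8 of the 36 genes (the 5 that rose with Stat2, Irf3 and Ifi27) and wholly below in 0, where 15.7% and 14.4% of all tested genes did so. The median log2FC was 0.21 over the 36 genes, of which 31 had a value above 0, against a median of -0.003 and 49.1% above 0 over all tested genes. Without Kdm1a-ifKO replicate 3 the median of the list was 0.06, and without Kdm1a-ifKO replicate 1 it was 0.33. Of all tested genes under 5 CPM in controls, 5.97% rose, a share close to that of all tested genes.

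The Kdm1a-ifKO libraries differed among themselves in these genes. Against the control mean, the median log2 CPM of the 36 genes was -0.07, 0.2 and 0.54 in Kdm1a-ifKO replicates 1, 2 and 3, and -0.07, 0.12 and -0.03 in the controls. Replicate 3 was the highest of the Kdm1a-ifKO libraries in 25 of 36 genes, whereas it was the highest in 32.4% of all tested genes, and replicate 1 was the lowest in 29 of 36. The medians ran in the same order over the 31 genes that did not pass the test (-0.18, 0.19 and 0.49) and over the 5 that rose (0.57, 0.69 and 0.78). The test favours genes whose Kdm1a-ifKO libraries lie close together, so the sizes of these steps are not compared. Dhx58 did not follow it, with its highest value in replicate 1, nor did Trim25 and Irf1, which were highest in replicate 2. The summed level of 12 markers of microglia, resident immune cells of the brain, lay in the same order, with 565, 661 and 736 CPM in Kdm1a-ifKO replicates 1, 2 and 3 against 531, 496 and 538 CPM in the controls. None of the 12 was at 0. All 12 had a log2FC above 0 in the fit with all libraries, 11 had an unadjusted p under 0.05, the groups did not overlap in 8, and 4 of them rose (Cx3cr1, Tmem119, Csf1r and C1qb, with log2FCs between 0.27 and 0.42). DESeq2 called 8 of the 12. The calls in edgeR changed with single libraries: 0 of the 12 markers were called without control replicate 1, control replicate 2 or Kdm1a-ifKO replicate 3, 1 without Kdm1a-ifKO replicate 2, 2 without control replicate 3 and 8 when Kdm1a-ifKO replicate 1 was left out. Among 7 astrocyte markers, Slc1a3, Aldoc and Sox9 rose (summed level 2460 to 2610 CPM in controls and 2860 to 3100 CPM in Kdm1a-ifKOs). Sox9 was called in all 12 alternatives, Slc1a3 in 8 and Aldoc in 7. The order of Kdm1a-ifKO replicates 1, 2 and 3 was not particular to microglia. Sums of markers of astrocytes (2860, 2940 and 3100 CPM) and oligodendrocytes (4800, 6010 and 6250 CPM) also followed it. So did ependyma with choroid plexus (77.7, 78.3 and 90.7 CPM) and lymphocytes with plasmacytoid dendritic cells (21.1, 23.1 and 24.3 CPM). Border macrophages with monocytes, endothelial cells, pericytes and excitatory neurons ran in other orders. The part of these cell types in the values of the interferon genes was not tested.

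**Figure D3:**
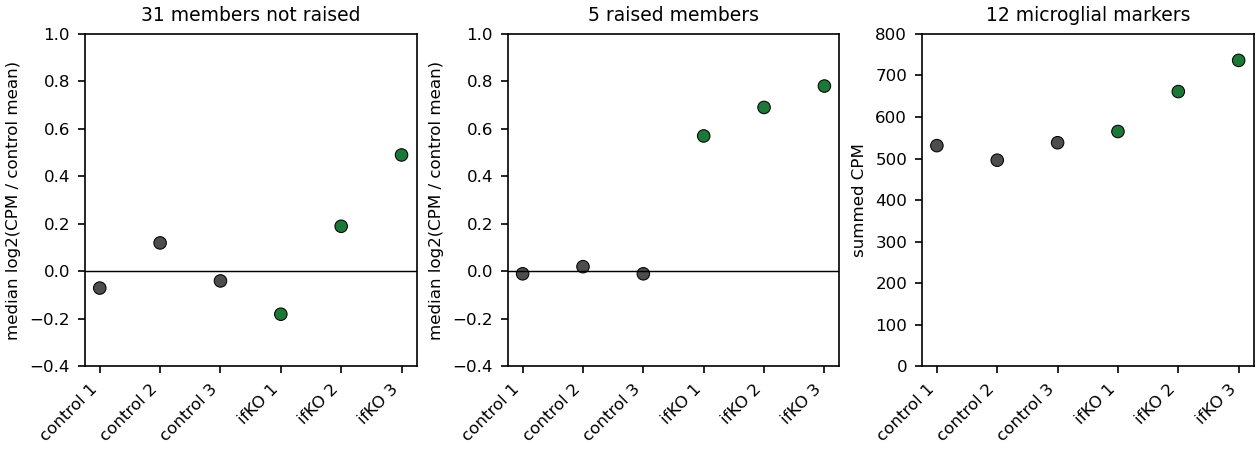
Left and middle, median log2 ratio of CPM to the control mean in each library, over the 31 genes that did not pass the test and over the 5 that rose; right, summed CPM of 12 microglial markers. Controls are grey and Kdm1a-ifKOs green: Kdm1a-ifKO replicate 3 is highest in each panel, and replicate 1 lies at -0.18 on the left and 0.57 in the middle.

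**Figure D4:**
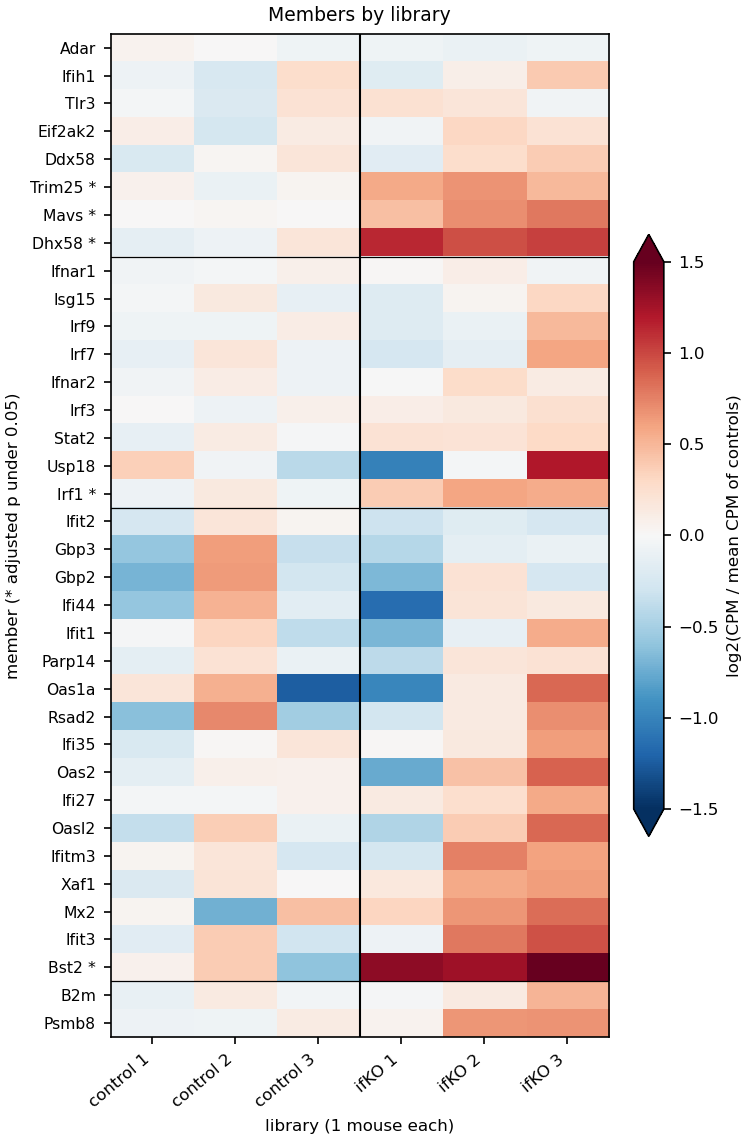
Log2 ratio of CPM to the control mean for each tested gene of the list (rows, by role, asterisk for an adjusted p under 0.05) in each library (columns). The 5 genes that rose are red in all Kdm1a-ifKO columns, while 23 of the 31 others have their highest Kdm1a-ifKO value in replicate 3.

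Markers of the other cell types that a hippocampal dissection could hold moved less uniformly. Of 7 markers of border macrophages and monocytes, 3 were tested and 0 passed, with a summed level of 3.2 to 7.25 CPM in controls and 4.27 to 14.0 CPM in Kdm1a-ifKOs, the highest in Kdm1a-ifKO replicate 2. Of 9 markers of lymphocytes and plasmacytoid dendritic cells, 2 were tested and 1 rose, Siglech, which microglia also express. Siglech was called in 6 of the 12 alternatives, and DESeq2 did not call it. Among endothelial cells 0 of 9 and among oligodendrocytes 0 of 6 passed in edgeR. For these 2 types and for border macrophages, 0 were also called by DESeq2 and 0 had an unadjusted p under 0.05. Pdgfrb rose among 6 pericyte markers, Kl among 8 markers of ependyma and choroid plexus, and Neurod6 fell among 5 markers of excitatory neurons. The other markers of these lists went different ways and did not pass: Ttr and Clic6 of the choroid plexus had log2FCs of -1.49 and -0.85 (median of that list -0.29, with 3 of 7 tested genes above 0), and the neuronal Slc17a7 and Camk2a had log2FCs of 0.09 and 0.05. The part of these types in the results was not tested.

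The levels of these genes in the control hippocampus spanned a wide range. Per length, in TPM (counts divided by exon length and scaled to the same sum in every library), B2m was highest with 330.0 ± 29.5 TPM (SD, n = 3), followed by Ifi27 (106 ± 3.66 TPM), Adar (92.8 ± 4.09 TPM), Ifitm3 (42.7 ± 6.37 TPM) and Irf3 (35.2 ± 1.82 TPM). The ranges of Ifitm3 and Irf3 over the 3 controls overlapped, whereas those of B2m, Ifi27 and Adar were separate from each other and from the rest. Bst2 was in place 9 of 39 (14.8 ± 4.8 TPM), Irf1 in place 12 (12.4 ± 1.05 TPM), Mavs in place 13 (12.2 ± 0.164 TPM), Trim25 in place 20 (5.72 ± 0.344 TPM) and Dhx58 in place 30 (1.67 ± 0.189 TPM). The genes that rose thus came from the upper, middle and lower parts of the order. Adjacent genes from place 8 to place 27, and from place 28 to place 39, had overlapping ranges, so that the order of adjacent genes is not distinguished. Genes farther apart could be separate, as Mavs (12.0 to 12.3 TPM) was from Trim25 (5.33 to 5.98 TPM). At the lower end, Mx1, Zbp1 and Oasl1 had mean levels between 0.148 and 0.373 TPM.

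Promoter sequences were searched for cores of the elements that interferon acts on. RefSeq promoters (GRCm38.p6) were matched for 31 of the 39 genes, not for Dhx58, Zbp1, Usp18, Oas2, Mx1, Mx2, Ifi27 and Parp14, and the 250 bases before each annotated start were searched on both strands. The letters GAAA, NN and GAAA in a row (TTTC, NN and TTTC on the other strand), where N is any base, form a core of the ISRE and were found in 10 of 31 genes (32.3%) against 3.46% of 27025 genes with a promoter. The letters TTC, NNN and GAA in a row (the same on the other strand) form a core of the GAS and were found in 7 of 31 (22.6%) against 8.13%. These 2 sets of letters can overlap, and a match does not show binding. Only exact cores within 250 bases were sought, so a gene without a match may still have such an element. Of the 10 genes with an ISRE match, Bst2 rose, while Stat2, Isg15, Ifit1, Ifit3, Oas1a, Rsad2, Gbp2, Gbp3 and B2m did not pass the test, with log2FCs from -0.22 to 0.62. Irf1 had 1 GAS match and no ISRE match, and Mavs and Trim25 had neither an ISRE nor a GAS match in the window.

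The window of Bst2, at chr8:71537473-71537722 on the minus strand, is shown because Bst2 had the largest increase of the list. Capitals mark 1 GAS and 2 ISRE matches that overlap one another and start 136, 130 and 124 bases before the annotated start:
Bst2: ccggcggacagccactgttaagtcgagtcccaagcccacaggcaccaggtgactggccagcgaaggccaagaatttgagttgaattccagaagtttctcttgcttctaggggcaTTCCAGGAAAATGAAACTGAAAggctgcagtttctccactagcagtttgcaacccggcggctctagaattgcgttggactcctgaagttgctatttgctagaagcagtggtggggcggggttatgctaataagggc

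The following stretches are shown to set Bst2 beside genes that have the same element and did not pass the test, and beside Irf1, which rose. Capitals mark the ISRE matches, or in Irf1 the GAS match. Isg15 lies at chr4:156200859-156200918 (minus strand), Ifit1 at chr19:34640769-34640828 (plus), Ifit3 at chr19:34583359-34583428 (plus), Rsad2 at chr12:26456543-26456592 (minus), B2m at chr2:122147537-122147576 (plus) and Irf1 at chr11:53769894-53769943 (plus):
Isg15: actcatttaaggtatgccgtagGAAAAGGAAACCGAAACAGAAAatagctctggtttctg
Ifit1: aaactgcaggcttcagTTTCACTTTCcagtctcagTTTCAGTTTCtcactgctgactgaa
Ifit3: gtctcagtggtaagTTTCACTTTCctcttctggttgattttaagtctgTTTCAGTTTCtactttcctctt
Rsad2: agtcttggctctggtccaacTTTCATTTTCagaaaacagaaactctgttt
B2m: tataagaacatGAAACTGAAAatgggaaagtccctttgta
Irf1: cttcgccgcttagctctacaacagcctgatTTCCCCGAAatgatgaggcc
Isg15 had 3 overlapping matches and a log2FC of 0.07, and Ifit1 had 2 separate matches and a log2FC of 0.00, against 2 overlapping matches and a log2FC of 1.5 for Bst2.

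A wider list of 130 genes of the same pathways was examined next, of which 96 could be tested. Of these, 13 rose and 0 fell, beside 6.04% and 2.82% of all tested genes, and their median log2FC was 0.11. At an unadjusted p under 0.05, 23 were higher and 1 lower in edgeR (13.1% and 11.3% of all tested genes), and DESeq2 called 14 higher and 0 lower (5.28% and 3.18% of all genes). Interferon itself was near the limit of detection. None of 21 interferon genes could be tested, 18 of them had no count in any library, and their summed counts were 1, 0 and 2 in controls and 0, 0 and 1 in Kdm1a-ifKOs. Counts of 0 and 1 at this depth do not exclude transcription in few cells. Among 11 tested receptors, kinases and feedback regulators, Tyk2, a kinase bound to Ifnar1, was the 1 gene that rose (log2FC 0.28, adjusted p = 0.0259).

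Among 17 tested adaptors and other RNA sensors, 3 rose. Zc3hav1 encodes ZAP, a zinc finger protein that binds CpG-rich viral RNA, and the controls had 142, 126 and 160 counts of it, the Kdm1a-ifKOs 324, 316 and 358. Its log2FC was 1.17 (SE 0.112, adjusted p = 1.61e-05). Ticam1, which encodes TRIF, the adaptor of Tlr3, had 135, 123 and 131 counts in controls and 202, 204 and 211 in Kdm1a-ifKOs (log2FC 0.62, adjusted p = 0.00284). Traf3, a ubiquitin ligase downstream of Mavs and TRIF, had a log2FC of 0.18 (adjusted p = 0.0321). The other 14 genes of this list did not pass.

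Among 8 tested genes of cytosolic DNA sensing, Tmem173, which encodes STING, was the 1 that rose (log2FC 0.48, adjusted p = 0.0487). Among 42 other interferon-stimulated genes, 3 rose. Parp12, an ADP-ribosyltransferase with zinc fingers, had 252, 278 and 266 counts in controls and 445, 491 and 467 in Kdm1a-ifKOs (log2FC 0.77, adjusted p = 3.84e-05). Trim21, the cytosolic antibody receptor, had a log2FC of 0.85 (adjusted p = 0.0103), and Shisa5 had one of 0.43 (adjusted p = 4.14e-04). The remaining 39 genes of that list did not pass. Among 18 genes of antigen presentation on MHC class I, 5 rose: the heavy chain H2-K1 (log2FC 0.71, adjusted p = 0.0453), the peptide transporter subunit Tap2 (0.54, adjusted p = 0.0133), the loading factor Tapbp (0.54, adjusted p = 0.00586), and the chaperones Calr (0.21, adjusted p = 0.0384) and Pdia3 (0.27, adjusted p = 0.00657). Calr and Pdia3 are general chaperones of the endoplasmic reticulum. H2-K1 belongs to a family of near-identical genes, and Tyk2, Traf3, Tap2, Tapbp and Pdia3 overlap other genes, so their counts are uncertain.

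Of these 13 genes, 7 were called in all alternatives (Ticam1, Zc3hav1, Parp12, Trim21, Shisa5, Tapbp and Pdia3). The other 6 (Tyk2, Traf3, Tmem173, H2-K1, Tap2 and Calr) all lost the call without Kdm1a-ifKO replicate 3. Of the 6, 4 lost it without control replicate 1, 4 without control replicate 2, 2 without control replicate 3, and 3 each when Kdm1a-ifKO replicate 1 or replicate 2 was left out. Tmem173 was called in 4 of the 12 alternatives and also lost the call with DESeq2, with a minimum of 10 summed counts and with the replicate block. Traf3 and Calr also lost it with the block, and H2-K1 with the minimum of 10 summed counts.

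The chromosomal surroundings of the 5 genes that rose were examined through the 3 nearest tested genes on either side of each. Of these 30 neighbours, 2 rose and 1 fell, where 6.04% of all tested genes rose and 2.82% fell. Both that rose were neighbours of Bst2. Tmem221, 16.78 kb from Bst2, had 1, 2 and 2 counts in controls and 29, 27 and 22 in Kdm1a-ifKOs (log2FC 3.82, SE 0.434, adjusted p = 8.80e-05). Nxnl1, a thioredoxin-like gene known from photoreceptors and 23.1 kb from Bst2, had 1, 0 and 1 counts in controls and 19, 22 and 17 in Kdm1a-ifKOs. For 2 control counts against 58, the ratio was 28.1 with a counting interval from 7.43 to 237. Mvb12a, the nearest gene to Bst2 at 5.47 kb on the same side, had a log2FC of 0.07 (adjusted p = 0.71), and on the other side Plvap, Gtpbp3 and Ano8 had log2FCs of 0.08, 0.16 and 0.1. The genes that rose were therefore not adjacent to Bst2, and the gene between them and Bst2 did not pass the test. Within 100 kb of Bst2, Slc27a1, named after its values were seen, also rose (log2FC 0.17, adjusted p = 0.0412) and lost its call without any one of the 6 libraries. Another gene with a log2FC over 1 lay within 25 kb of 1 of the 36 tested genes of the list (Bst2), of 2.6% of all tested genes and of 7.1% of the genes that rose.

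Around the other genes that rose, no neighbour was called higher. Dhx58 lies 0.48 kb from Kat2a, an acetyltransferase gene, which averaged 83.2 CPM in the control and 88.7 CPM in the Kdm1a-ifKO libraries (log2FC 0.09, adjusted p = 0.309). None of the 6 neighbours of Dhx58, of Mavs or of Trim25 passed the test. The nearest genes to Irf1 on its higher side had values above 0 without passing the test. These were the overlapping Gm17334 (log2FC 0.79, 95% interval 0.23 to 1.36) and Gm12216, 5.04 kb away, with 50, 47 and 45 counts in controls and 59, 69 and 76 in Kdm1a-ifKOs (log2FC 0.48, 95% interval 0.09 to 0.86, adjusted p = 0.116). For both, the Kdm1a-ifKO libraries lay above all controls. Farther away, Kif3a, 168.05 kb from Irf1, fell (log2FC -0.26, adjusted p = 0.0205). This call was lost without Kdm1a-ifKO replicate 3 and with a replicate block.

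**Figure D5:**
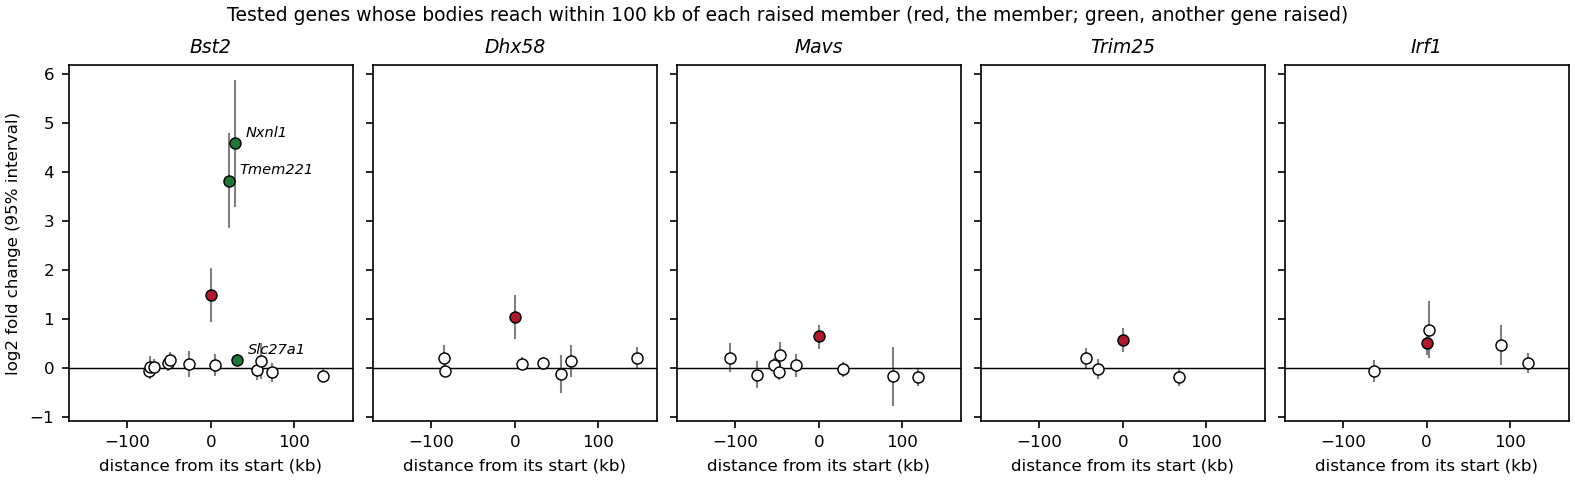
Log2FC with 95% interval of tested genes whose bodies reach within 100 kb of Bst2, Dhx58, Mavs, Trim25 and Irf1, against the distance of their start from that of the named gene (kb, positive toward higher coordinates). Red is the named gene, green another gene that rose and white a gene that did not: Tmem221 and Nxnl1 lie above Bst2, and around the other 4 genes no other point is green.

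CTCF loops of excitatory neurons from the Sun1-GFP reporter mice were compared with these positions. An anchor lay within 10 kb of the gene body for 24 of the 39 genes (61.5%) and for 56.9% of tested genes, but with at least 10 PETs the shares were 25.6% and 35.4%, and with an anchor that overlapped the gene body 28.2% and 39.5%. Dhx58 had 11 such loops with 135 paired-end tags (PETs) in all, Bst2 had 5 with 25 PETs, Trim25 had 2, Mavs had 1 and Irf1 had 0. For Dhx58 the loops reached up to 243.1 kb, and the tested genes at their far anchors (Ttc25, Cnp, Dnajc7, Nkiras2, Kcnh4, Ghdc and Cavin1) did not pass the test. At Bst2, 4 of the loops ran from 8.3 to 90.7 kb toward lower coordinates, away from Tmem221 and Nxnl1. The genes at the far anchors of the loops at Bst2 (Gtpbp3, Plvap and Gpt2) did not pass either. No loop joined an anchor near Bst2 to one near Tmem221 or Nxnl1. The shortest loop that enclosed all 3 genes spanned 13996.7 kb with 4 PETs. These counts come from 1 library and carry no test.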

How the data were processed

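Only the RNA-seq counts and the CTCF loops were used, and the histone, Kdm1a and 4C libraries were not analysed here. The authors trimmed the single-end poly-A reads with cutadapt 1.18 and aligned them to mm10 with HISAT2 2.1.0. Reads of high mapping quality on nuclear chromosomes were counted per gene with HTSeq 0.11.1 (versions also in the submitters' processing notes). The deposited counts are raw read counts. The strand setting is not given in the sources used here, and 14 of the 39 genes overlap a gene on the opposite strand and 3 one on the same strand. The loops, which the authors made with ChIA-PIPE, are deposited as counts of PETs, with at least 3 per loop (27786 loops).

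Kdm1a-ifKO (3 libraries) and control (3 libraries) were compared on all genes with edgeR 4.0.16 under R 4.3.3, using filterByExpr, TMM normalization and the robust quasi-likelihood F test for genotype, without other factors. Adjusted p-values follow Benjamini and Hochberg and cover the 16799 tested genes. Intervals are the log2FC ± its SE times the t quantile of the fit. TPM used summed exon lengths of GENCODE M21 (GRCm38), which matched 99.3% of the counted genes. The groups came from the sample titles. With 1 library per mouse and the replicates of 1 group differing beyond sampling noise, p-values measure the spread between these mice. Loops were assigned to a gene when an anchor lay at most 10 kb from the gene body.

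The genes and lists were chosen with earlier results of these data known. A result for an item of these lists may not be reported here. Named genes are all 39 genes, genes of the other pathway and marker lists with an adjusted p under 0.05, Kdm1a, the 3 nearest tested genes on each side of each gene that rose, and tested genes at the far anchors of loops at Bst2 and Dhx58. Outside this rule, the markers Ttr, Clic6, Slc17a7 and Camk2a, which did not pass, were named beside the called genes of their lists. Dhx58os, Slc27a1 and genes between Zc3hav1 and Parp12 were also named outside it. The alternatives were DESeq2 1.42.0, its size factors in edgeR, upper-quartile scaling, all genes with a count, a minimum of 10 summed counts, a replicate block, and the omission of single libraries. For loops they were at least 5 or 10 PETs, an anchor overlapping the gene body and an anchor within 10 kb of the start.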

Additional observations from a re-analysis of the deposited data

How the results depend on the processing

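The 5 genes that rose (Bst2, Dhx58, Mavs, Trim25 and Irf1) were called in the same direction in each of the 12 alternatives, with the highest adjusted p of 0.0318 for Bst2 (replicate block). The number of genes of the list that were called was 10 with no filter on low counts and lay between 5 and 9 when single libraries were left out, and 0 were called lower in any alternative. Those gained were among Ifi27, Stat2, Ifit3, Ifitm3 and Xaf1. The median log2FC of the list lay between 0.06 and 0.33 when single libraries were left out. Of 130 other pathway genes, between 7 and 12 rose and between 0 and 1 fell when single libraries were left out. No result reversed among the genes called, and 13 of the genes not called changed sign in at least 1 alternative. The cause of these changes was not tested. All genes called numbered 1447 higher and 1090 lower with no filter, against 1014 and 473, and between 646 and 876 higher and 137 and 584 lower when single libraries were left out; DESeq2 gave 872 higher and 524 lower and no adjusted p for Nxnl1.

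The values gave no sign that the replicate numbers pair the libraries. Deviations of libraries with the same number correlated at -0.032, -0.089 and -0.144 over genes, and no control library correlated best with its own number. With 3 libraries per group, deviations from the group mean depend on each other, so these values cannot exclude a pairing, for example by litter. With the replicate block, 6 genes of the list (the 5 with Ifi27) and 10 other pathway genes rose, and 797 tested genes rose and 249 fell in all.

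Genes of the list with a CTCF loop numbered 10 with at least 10 PETs (25.6% against 35.4% of tested genes), 11 with an anchor that overlapped the gene body (28.2% against 39.5%) and 15 with an anchor within 10 kb of the start (38.5% against 36.9%), in place of 24. With 3 mice per group, the wide intervals of the weakly counted effectors limit what can be said of them.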

Other observations

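Zc3hav1 and Parp12, which both rose and both encode zinc finger proteins of the PARP family, lie on chromosome 6 with starts 763.7 kb apart. This stretch was chosen after its values were seen. Of the 10 tested genes from Zc3hav1 to Parp12, these 2 rose and 0 fell. The genes between them did not pass the test, among them Ttc26 (log2FC -0.23), Luc7l2 (log2FC -0.22) and Tbxas1 (log2FC 0.16).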
